A study of Gallus gallus with 2 samples.

Results

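The genes described here encode the growth factors of the FGF, PDGF, IGF, ERBB and KIT families, their receptors, the Sprouty and SPRED feedback inhibitors and the extracellular binding proteins. Members were all gene names that start with the family symbols (FGF, PDGF, IGF, NRG, SPRY and SPRED) or equal bFGF, ERBB2 to ERBB4, EGFR, HBEGF, HGF, MET, KIT, KITLG or INSR. The rule used no measured value and found 56 of 13011 names. Total RNA of chicken embryo hearts (Gallus gallus) was sequenced in 2 libraries. The control library is labelled with saline and the AAPH library with AAPH, a compound that releases free radicals. AAPH stands for 2,2-azobis(2-amidinopropane) dihydrochloride. Eggs were incubated at 38 °C and 70% humidity. Injection of AAPH (2.6 µmol in 100 µL) into the air chamber began at Hamburger-Hamilton stage 35 and was repeated on alternate days until day 10. Hearts came from surviving embryos at stage 37, on day 11. The control is listed with the same start stage and last day of injection. The volume of saline and how it was given are not stated in the labels. The labels give neither the number of hearts in a library nor the sex of the embryos.

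Growth factors of these families are secreted or membrane-bound ligands that pair and activate receptor tyrosine kinases at the cell surface. The receptors signal through the RAS-MAPK and PI3K-AKT cascades to growth, survival and migration, and Sprouty and SPRED proteins dampen the RAS-MAPK branch. In the embryonic heart, FGFs from epicardium and endocardium feed growth of the muscle wall, PDGFs guide epicardium-derived cells into the mural and fibroblast lineages, neuregulin from endocardium acts on ERBB2 and ERBB4 of muscle cells for trabeculation, and IGFs drive muscle cell proliferation.

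Levels are in FPKM (fragments corrected for transcript length and library size), added up over all transcripts under a name, and so are per length. Each group has 1 library, so no difference below has a replicate error, no test was possible and no p-value is given. The log2 ratio is log2((AAPH FPKM + 1)/(control FPKM + 1)), a scale that shrinks the differences of weakly expressed genes. Comparison was limited to the 10106 names that averaged at least 1 FPKM, and a name is called higher or lower where this ratio reached 1.5-fold. The median log2 ratio of all compared genes was 0.0039, with quartiles of −0.19 and 0.18. Rescaling each library to the same total (TPM) put that median at 0.23, and a rescaling that left out haemoglobin and mitochondrial-genome genes put it at 0.22. The sign of a small negative ratio therefore depends on the scaling. Summed FPKM was 1248089 in the control and 1042407 in the AAPH library. The number of fragments in a library cannot be read from FPKM and is unknown. Only the relative FPKM of 1 fragment was estimated, at 1.05 in the AAPH over the control library. The heart muscle marker TNNT2 (cardiac troponin T) was at 5989 and 5342 FPKM.

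Of the 56 names, 45 passed the filter. Only 1 of the 45 (2.22%) was past 1.5-fold, IGFBP5 on the lower side, against 6.66% of all compared genes either way, 2.73% higher and 3.93% lower. Of the 45, 33 had log2 ratios within 0.25 of 0. The same share over all compared genes was not computed, and their quartiles were −0.19 and 0.18. The count of 33 is therefore not read as a trait of the members. As deposited, 28 of the 45 ratios (62.2%) lay above 0, against 50.5% of all compared genes. After rescaling to TPM 39 did (86.7%), against 79.2%. The genes below 0 under all 3 scalings were IGFBP5, FGF18, NRG4, IGFBP7, FGFR3 and FGF10. At a lower limit, 25% in place of 50%, 2 members were higher and 4 lower, against 11.6% and 14% of all compared genes. At 2-fold 0 were lower, against 0.782%. After rescaling to TPM, SPRED2 was higher and 0 members were lower, against 8.4% and 1.6% of all compared genes (10% either way). With the other rescaling SPRED2 was higher and IGFBP5 lower, against 8.53% and 1.83% (10.4% either way). The members together held 0.0883% of the control and 0.0944% of the AAPH FPKM. Their summed FPKM was 1102 in the control and 984 in the AAPH library, of which IGFBP7 alone held 566 and 447. In these whole hearts, fewer cells of a type and less RNA per cell cannot be told apart.

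**Figure D1:**
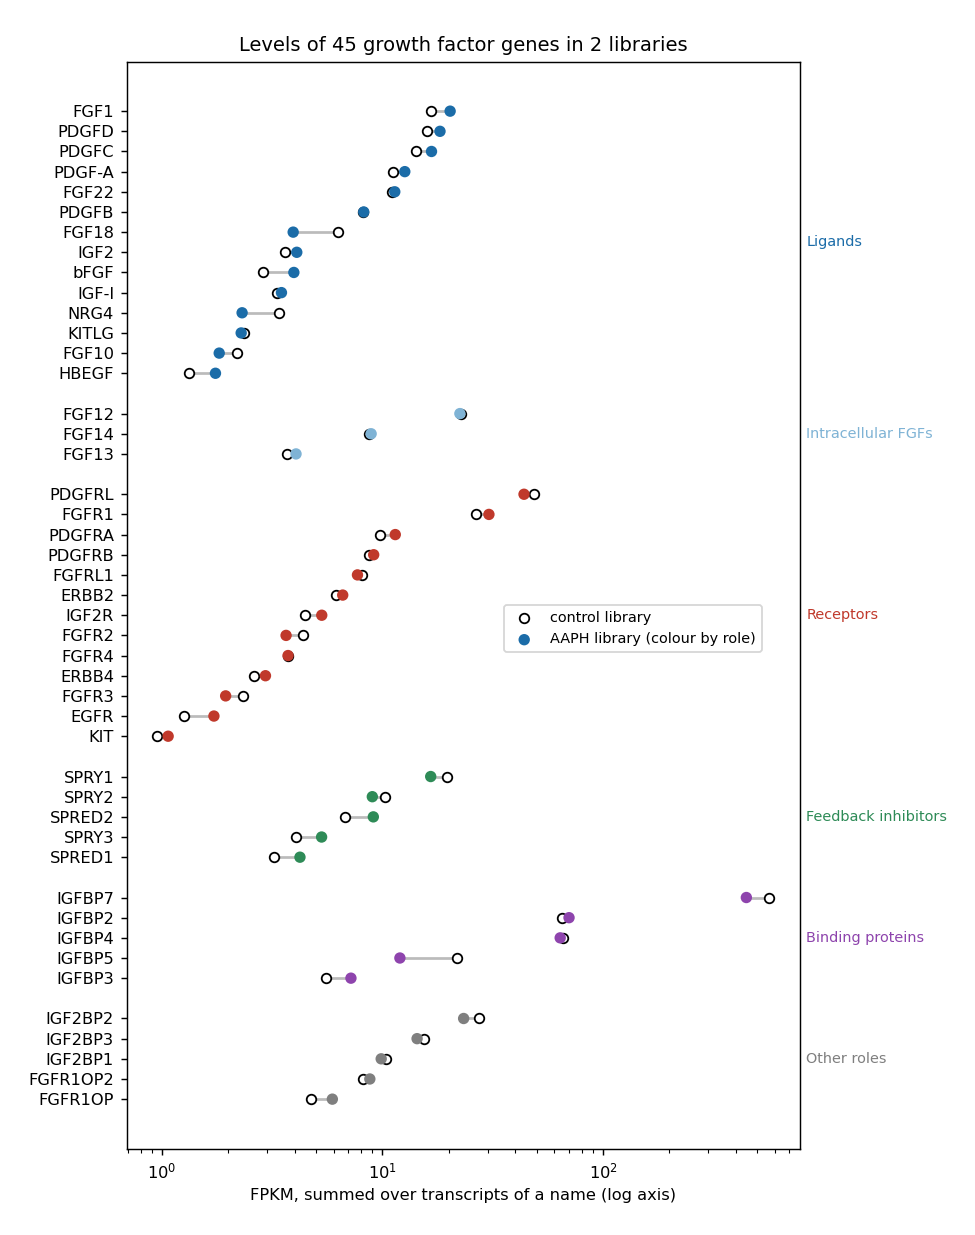
FPKM of the 45 compared growth factor genes in the control library (open circles) and the AAPH library (filled circles, coloured by role) on a log axis, ordered by level within each role. The circles of most genes lie close together, and the widest gap is that of IGFBP5, at 21.9 and 12.0 FPKM.

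Among FGF ligands, FGF1 was the most abundant. FGF1, which binds all FGF receptors, was at 16.5 FPKM in the control and 20.3 in the AAPH library, a log2 ratio of 0.28. FGF22, a member of the FGF7 subfamily, was at 11.1 and 11.4 FPKM (0.03). The level of FGF22 was nearly the same in the 2 libraries, and it ranked after FGF1 among FGF ligands.

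FGF18, which signals mainly through FGFR3 and is known for its role in skeletal growth, had the lowest ratio of any ligand. It was at 6.28 FPKM in the control and 3.94 in the AAPH library (log2 ratio −0.56, just inside 1.5-fold). Its 3 transcripts were all lower in the AAPH library. A lower ratio was found in 4.40% of all compared genes and in 4.06% of the 3794 genes with a mean FPKM within 2-fold of that of FGF18. As FGF18 was singled out as the lowest ligand, a small percentage is partly the result of that choice. With a pseudocount of 0.5 or 0.1 FPKM in place of 1, FGF18 was past 1.5-fold, at −0.61 and −0.66, and after rescaling to TPM it was at −0.34.

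The gene named bFGF, whose RefSeq symbol is FGF2, encodes basic FGF. It was at 2.87 and 3.96 FPKM, the highest log2 ratio of the ligands at 0.36. The control value came from 1 of its 2 assembled transcripts, which was at 2.87 and 2.15 FPKM. The other was listed at 0 in the control library and was at 1.81 FPKM in the AAPH library. In RefSeq bFGF overlaps NUDT6, which was at 11.4 and 9.62 FPKM. Whether strand was used in counting is not given in the sources used here, so reads of bFGF and NUDT6 may not be told apart.

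FGF10, the ligand of FGFR2 known from lung and limb outgrowth and expressed in the anterior heart field, was at 2.195 and 1.82 FPKM (log2 ratio −0.18). FGF10 lies on the Z chromosome, where 344 of 408 compared genes had ratios above 0, with a median of 0.30. Only 5.64% of the Z genes had a lower ratio than FGF10. Sex is not labelled, and the part of Z dosage in any value was not tested.

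The remaining FGF ligands with an entry under the rule were below the filter. FGF3, FGF4, FGF6, FGF8, FGF16 and FGF20 had no entry under these names, so their levels are unknown here. FGF7, a ligand of the epithelial form of FGFR2, was at 0.862 and 0.529 FPKM. FGF5 was at 0.197 in the control and FGF23, the bone-derived hormone of phosphate balance, at 0.0510, and both were listed at 0 in the AAPH library. At these levels no change is read from the values. Entries spelled otherwise, and so outside the rule, were low as well. Fgf9, an endocardial and epicardial ligand of heart muscle growth in the mouse, was at 0.797 and 0.335 FPKM, and Fgf19 at 0.0988 and 0.277.

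The intracellular FGF homologous factors are not secreted and bind voltage-gated sodium channels. Their levels were close in the 2 libraries. FGF12, the main one in these hearts, was at 22.7 and 22.4 FPKM, FGF14 at 8.70 and 8.88, and FGF13 at 3.68 and 4.05. Their log2 ratios were −0.02, 0.03 and 0.11.

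All 4 PDGF chains were present and had log2 ratios from 0.003 to 0.22 as deposited. PDGFD, a ligand of PDGFRB, was the most abundant at 15.9 and 18.2 FPKM (0.19). PDGFC, which acts on PDGFRA, was at 14.1 and 16.7 (0.22), and PDGF-A, the chain PDGFA that also acts on PDGFRA, at 11.2 and 12.6 (0.16). PDGFB, the endothelial signal that recruits mural cells, was at 8.20 and 8.22 (0.003). The chains summed to 49.4 FPKM in the control and 55.8 in the AAPH library. The order of the 4 chains by level was the same in both libraries.

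IGF2, a ligand of fetal growth, was at 3.60 and 4.09 FPKM (log2 ratio 0.15). The name IGF-I was at 3.33 and 3.48 (0.05), but it covers 2 separate loci. The locus next to PMCH, which lies 2 protein-coding genes from IGF1 in RefSeq (assembly GRCg7b), was at 0.171 and 0.360 FPKM. The locus between FAM169B and LYSMD4 was at 3.16 and 3.12 FPKM. In RefSeq those neighbours lie on chromosome 10, 3 and 4 protein-coding genes from IGF1R, while IGF1 lies on chromosome 1. The identity of this locus is unresolved, so the summed value is not read as the level of the ligand.

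The ERBB ligands were low. NRG4, a ligand of ERBB4, was at 3.38 and 2.31 FPKM (log2 ratio −0.40). HBEGF, the heparin-binding EGF-like ligand of EGFR and ERBB4 with a role in valve formation in the mouse, was at 1.33 and 1.75 (0.24). The smallest fragment numbers that give the HBEGF ratio of 1.31 are 5 in the AAPH and 4 in the control library, with an exact binomial 95% counting interval of 0.283 to 6.62, and the true numbers may be multiples of these. NRG1, the endocardial neuregulin, was under the filter at 0.448 and 0.524 FPKM, NRG3 at 0.401 and 0.337, and NRG2 was listed at 0 in the control and at 0.0543 in the AAPH library. KITLG, the ligand of KIT, was at 2.36 and 2.29 (−0.03). HGF/SF, the hepatocyte growth factor under a spelling outside the rule, was at 0.518 and 0.527.

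**Figure D2:**
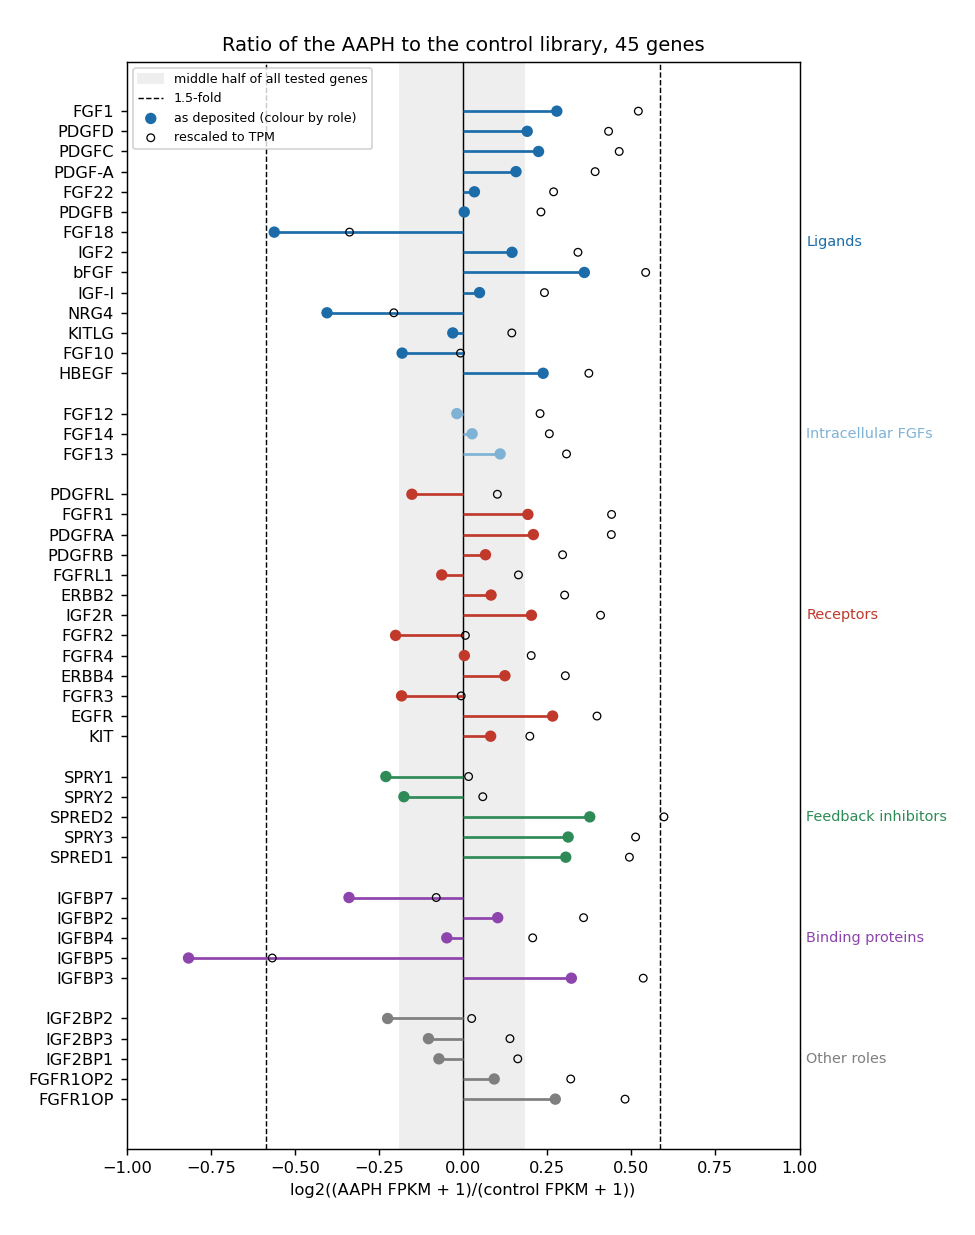
Log2 ratio of the AAPH to the control library for the 45 compared genes as deposited (filled circles) and rescaled to TPM (open circles), grouped by role, with the interquartile range of all compared genes shaded and dashed lines at 1.5-fold. IGFBP5 at −0.82 is outside the dashed lines as deposited and inside them at −0.57 after rescaling, and SPRED2 is the reverse, at 0.38 and 0.60.

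None of the 13 receptors was past 1.5-fold, and their log2 ratios spanned −0.20 to 0.27. Of the FGF receptors, FGFR1, a receptor with a role in early heart muscle, was the most abundant at 26.5 and 30.4 FPKM (0.19). FGFR2 was at 4.35 and 3.65 (−0.20), FGFR4 at 3.72 and 3.73 (0.004) and FGFR3 at 2.34 and 1.94 (−0.18). FGFRL1, which lacks a kinase domain, was at 8.09 and 7.70 (−0.06). In each library FGFR1 was above every other FGF receptor. FGFR2 and FGFR4 lay close to each other, and no spread is available to order them.

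PDGFRA, the receptor of fibroblast precursors, was at 9.75 and 11.4 FPKM (log2 ratio 0.21), and PDGFRB, the mural cell receptor, at 8.67 and 9.12 (0.07). The receptor-like PDGFRL, which lacks a kinase domain, had the highest level of the receptor class at 48.8 and 43.8 (−0.15). Markers of mural cells and fibroblasts are given beside these values. Of the 8 compared smooth muscle and pericyte genes, RGS5, a pericyte marker, was at 25.9 and 12.1 FPKM (−1.03) and MYH11 at 4.74 and 4.34 (−0.10). ABCC9, also a pericyte marker (0.58), and MYOCD (0.31) lay on the other side. Over these 8 the median was 0.004, with 4 above 0, RGS5 alone was called, and they summed to 107 and 103 FPKM. The 11 compared fibroblast genes summed to 1247 and 1187 FPKM, with 1 higher (DPT, 0.64) and 1 lower (PI16, −0.75). Of all compared genes 2.73% were higher and 3.93% lower. The part of cell make-up in the PDGF receptor values was not tested.

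IGF2R, which clears IGF2 and carries lysosomal enzymes in mammals, was at 4.48 and 5.30 FPKM (log2 ratio 0.20). ERBB2, the co-receptor that binds no ligand itself, was the most abundant ERBB receptor at 6.18 and 6.60 (0.08). ERBB4, the neuregulin receptor, was at 2.62 and 2.95 (0.12) and EGFR at 1.26 and 1.72 (0.27). The ERBB receptors kept the order ERBB2, ERBB4, EGFR in both libraries. KIT, the receptor of melanocyte, germ and blood precursors, stood just inside the filter at 0.953 and 1.07 (0.08), and c-met, the HGF receptor under a spelling outside the rule, was at 0.413 and 0.380. ERBB3, INSR, IGF1R and SPRY4 had no entry under these names and were not analysed here.

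Ligands and receptors had nearly the same median log2 ratio, 0.10 over 14 ligands and 0.08 over 13 receptors, against 0.0039 over all genes. Ligands ranged more widely, from −0.56 to 0.36. After rescaling to TPM the medians were 0.31 and 0.30, against 0.23 over all genes. The summed FPKM of all 20 ligand names was 104 and 112, and that of the receptors 128 and 129. PDGFRL, which lacks a kinase domain, held 48.8 and 43.8 of the receptor sum. The 10 receptor tyrosine kinases alone summed to 66.3 and 72.6.

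The feedback inhibitors lay on both sides of 0. SPRY1 and SPRY2, Sprouty genes induced by FGF signalling, were the most abundant and had log2 ratios of −0.23 (19.6 and 16.5 FPKM) and −0.18 (10.3 and 8.99), which came to 0.02 and 0.06 after rescaling to TPM. SPRED2, which recruits neurofibromin to RAS, was at 6.77 and 9.09 (0.38, the highest ratio of all 45 genes), SPRY3 at 4.07 and 5.29 (0.31) and SPRED1 at 3.23 and 4.22 (0.31). None was past 1.5-fold as deposited, and SPRED2 was after rescaling to TPM (0.60). The class median was 0.31, and −0.16 relative to all genes when the mean had to reach 5 FPKM, since SPRY1, SPRY2 and SPRED2 were then left. Their FPKM summed to 43.9 and 44.1.

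The extracellular IGF binding proteins included the most abundant member, IGFBP7, and the only one past 1.5-fold, IGFBP5. IGFBP5, a matrix-associated protein that binds IGFs, was at 21.9 FPKM in the control and 12.0 in the AAPH library, 0.548 of the control value (log2 ratio −0.82). A lower ratio was found in 1.56% of all compared genes and in 1.13% of the 3723 genes with a mean FPKM within 2-fold of its own. IGFBP5 was singled out as the lowest of the 45 ratios, so a small percentage is partly the result of that choice. Of the 45, only 2 (IGFBP5 and FGF18) lay outside the 5th to 95th percentiles of genes within 2-fold of their level. IGFBP5 has 1 assembled transcript, and its ratio gave no whole fragment pair with 10 or fewer on a side. After rescaling to TPM its log2 ratio was −0.57, inside 1.5-fold, and with the other rescaling it was −0.60 and outside.

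IGFBP2, which lies beside IGFBP5 in RefSeq, was at 65.3 and 70.1 FPKM (log2 ratio 0.10). IGFBP4, an inhibitor of IGF action cleaved by PAPPA, was at 66.2 and 64.0 (−0.05). IGFBP3, the main carrier in serum, was at 5.56 and 7.19 (0.32). IGFBP7, a low-affinity member abundant in endothelium and the most abundant gene of the 56, was at 566 and 447 (−0.34). Among the 177 genes within 2-fold of the level of IGFBP7, 27.1% had a lower ratio. Endothelial genes, by comparison, had a median of 0.06 over 12, with 7 above 0 and 0 past 1.5-fold. PECAM1 was at 47.3 and 42.4 FPKM (−0.15) and CDH5 at 47.5 and 57.9 (0.28). The liver products IGFBP1 (0.0967 and 0.136 FPKM) and IGFALS (0.0639 and listed at 0) were low, as were FGFBP1, which releases FGFs from the matrix (0.105 and listed at 0), and FGFBP2 (0.0836 and 0.176). For FGFBP2 the smallest fragment numbers are 2 in the AAPH and 1 in the control library, with a counting interval of the ratio of 0.109 to 124.

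Marker counts of other cells are given beside the values of IGFBP5 and FGF18, with sums over all names of a list, those under the filter included. Of all compared genes, 3.93% were lower and 2.73% higher as deposited, and 50.5% had ratios above 0. Of 8 compared neuron, glia and neural crest genes 4 were lower and 0 higher (summed FPKM 71.6 and 54.1), and of 7 macrophage and leukocyte genes 2 were lower and 0 higher (114 and 83.5 summed). All 6 compared erythroid genes had ratios below 0, with 4 lower (3450 and 2293 summed). Of 6 epicardial genes 1 was lower and 0 higher (127 and 116 summed). The lower one was the epicardial transcription factor WT1, at 9.14 and 5.62 FPKM (log2 ratio −0.62). In that list 2 genes lay above 0, ALDH1A2 (0.20) and SEMA3D (0.04), and 4 below 0, WT1 among them. Of 12 heart muscle genes 1 was lower (MYH7, −0.76), with 47970 and 41590 FPKM summed. Of 3 compared liver genes 2 were lower. The liver sum of 166 and 81.9 FPKM was mostly APOA1, at 156 and 72.0, while ALB was at 0.279 and 0.158 and TF at 4.89 and 6.05. The melanocyte and mast cell genes summed to 15.5 and 15.2. Of 3 compared thyroid and parathyroid genes 2 were higher, TG and PTH, and the list summed to 2.24 and 28.2. After rescaling to TPM, 4 erythroid, 2 neural, 1 macrophage, 1 liver, 0 epicardial and 0 heart muscle genes were lower, against 1.6% of all compared genes. The part of these cells in the growth factor values was not tested.

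**Figure D3:**
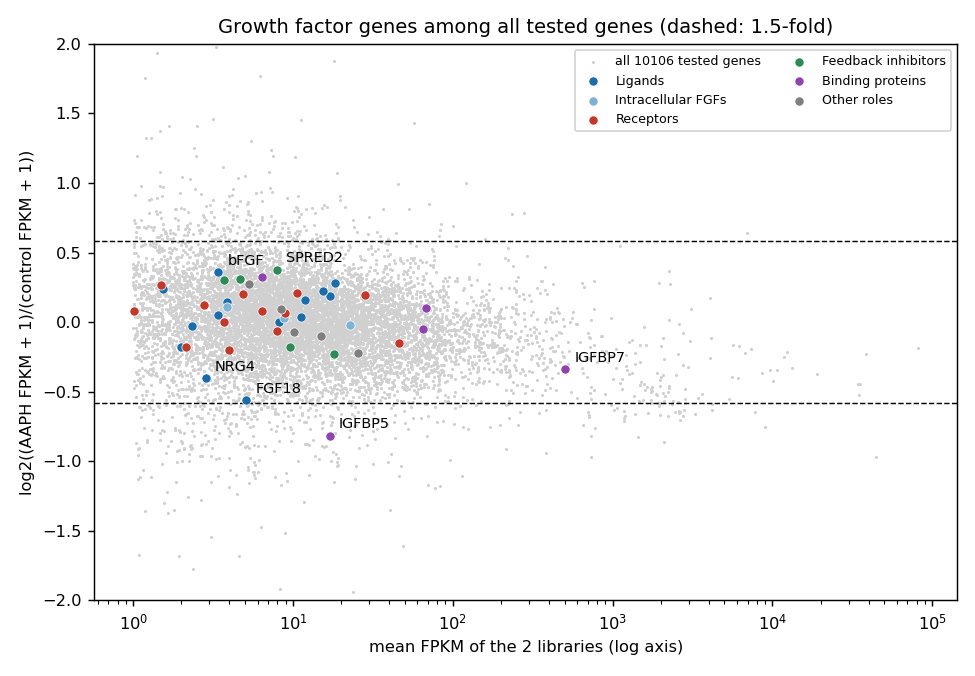
Log2 ratio against mean FPKM (log axis) for all 10106 compared genes (grey) and the growth factor genes (coloured by role), with dashed lines at 1.5-fold and 23 genes outside the vertical range. The growth factor genes lie within the grey cloud between the dashed lines, apart from IGFBP5 at −0.82.

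Names that match the rule by letters alone encode other proteins. The RNA-binding proteins IGF2BP1 (10.4 and 9.87 FPKM), IGF2BP2 (27.4 and 23.3) and IGF2BP3 (15.5 and 14.4), which bind IGF2 and other messenger RNAs, had log2 ratios of −0.07, −0.22 and −0.10, all above 0 after rescaling to TPM. FGFR1OP, a centrosome protein, was at 4.73 and 5.92 (0.27), FGFR1OP2 at 8.16 and 8.76 (0.09), and IGFN1 under the filter at 0.0278 and 0.0877.

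Values of single transcripts differed between the libraries in genes whose sums were close. Of the 45 genes, 35 had 2 or more assembled transcripts, and in 7 of them (20%) the leading transcript differed between the libraries, against 21.9% of all such genes. In 16 of the 35 (45.7%) a transcript held 10% or more of the gene in 1 library and under 1% in the other, against 32.2% of the 6743 compared genes with 2 or more transcripts. IGF2R had a transcript at 0.0254 and 5.30 FPKM and another at 4.45 and 0.0045, while the sum was 4.48 and 5.30. For SPRY2 the transcript that held 10.2 of 10.3 FPKM in the control was at 0.0138 in the AAPH library, and another went from 0.0582 to 5.34. For SPRY3 a transcript at 4.07 and 0.930 stood beside one at 0.0019 and 4.36. FGF22 kept its leading transcript at 5.59 and 5.60, while a second went from 5.49 to 0.0002 and 2 others came to 2.98 and 2.79.

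FGFR1, PDGFRA and IGFBP4 had shares that differed without such an exchange. The leading FGFR1 transcript was at 19.1 and 17.1 FPKM and the next at 6.82 and 13.3, so that the share of the latter went from 25.8% to 43.7%. The minor PDGFRA transcript went from 1.46 to 3.80 FPKM, or from 14.9% to 33.3%. IGFBP4 had 20.5 and 31.7 FPKM in its minor transcript and 45.7 and 32.2 in the other. The files give no interval for the division of fragments among overlapping transcripts, so its part in these shifts was not tested. The sums per name are therefore used for all comparisons above.

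**Figure D4:**
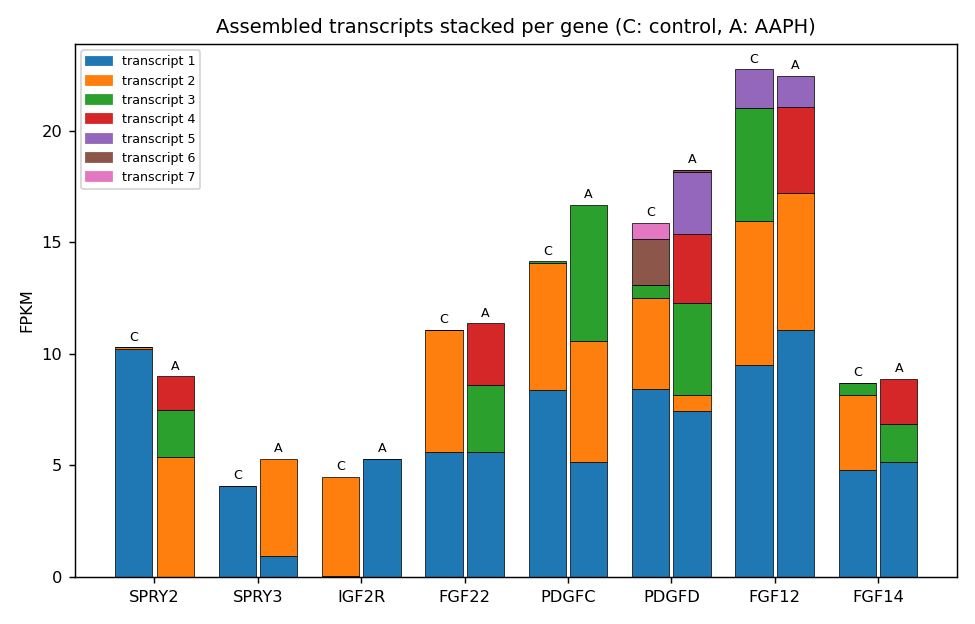
FPKM of the assembled transcripts stacked per gene for 8 members, with the control (C) and AAPH (A) libraries side by side and transcripts numbered by mean level within each gene. The heights are close (IGF2R at 4.48 and 5.30 FPKM) while the colours within a bar differ.

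Of 102 listed pathway genes with a matched name, 87 were compared. In all, 3 were higher (3.45%, against 2.73% of all compared genes) and 1 was lower (1.15%, against 3.93%), and the median was 0.14. The higher genes included subunits of the PI3-kinase. The catalytic subunit PIK3CA was at 2.65 and 4.79 FPKM (0.67). The regulatory subunit PIK3R1, which is Z-linked, was at 1.05 and 2.90 (0.93). Of 408 compared Z genes 15.2% were higher as deposited and 37.7% after rescaling to TPM. The other PI3-kinase catalytic genes, PIK3CB (1.85 and 1.85) and PIK3CD (1.29 and 1.71), were within 1.5-fold and are named after their values were seen. After rescaling to TPM, 11 of the 87 were higher (12.6%, against 8.4% of all compared genes) and 1 lower (1.15%, against 1.6%).

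The lower gene was IL17RD (Sef), an FGF feedback inhibitor of the ERK target list, at 4.002 and 1.73 FPKM (log2 ratio −0.87, and −0.66 after rescaling to TPM). In that list of 13 compared genes the phosphatase DUSP5 was at 2.74 and 1.58 (−0.53). The ETS factor ETV4 was at 11.5 and 15.5 (0.40) and the immediate early gene EGR1 at 11.5 and 14.3 (0.29). ERK target genes lay on both sides of 0, with a median of 0.04 and 8 of 13 above 0.

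Among 14 RAS-MAPK genes the lowest were H-RAS at 224 and 176 FPKM (log2 ratio −0.35) and RPS6KA1 (−0.24), and NF1, a RAS inhibitor, was at 4.15 and 6.60 (0.56). Among 17 PI3K-AKT genes EIF4EBP1 (−0.26) and FOXO3 (−0.09) were lowest. Of 15 receptor adaptors 0 were past 1.5-fold, from FRS3 (−0.28) and PLCG1 (−0.22) to CRK (0.30) and GRB2 (0.35). Of 15 FGF co-receptors and heparan sulfate enzymes 0 were past 1.5-fold, from EXT1 (−0.43) and HS6ST1 (−0.31) to Sulf1 (0.43) and EXT2 (0.52).

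All 7 compared IGFBP proteases and regulators had ratios above 0 as deposited and after rescaling to TPM, with a median of 0.29. Of all compared genes, 50.5% and 79.2% lay above 0 under these scalings. None of the 7 was past 1.5-fold as deposited, and 2 were higher after rescaling to TPM, where 8.4% of all compared genes were. All 9 names of the list, with PAPPA2 and STC1 that were under the filter, summed to 84.2 and 106 FPKM. The insulin-degrading enzyme IDE was at 10.4 and 15.4 FPKM (0.53), the PAPPA inhibitor STC2 at 11.7 and 16.6 (0.47), HTRA3 at 16.0 and 18.3 (0.19) and ADAMTS1 at 12.8 and 14.3 (0.14). Of 6 compared ERBB ligands and regulators 0 were past 1.5-fold. ADAM17, the sheddase of ERBB ligands, was at 13.7 and 16.6 (0.26), ADAM10 at 17.2 and 19.9 (0.20), BACE1 at 28.5 and 27.7 (−0.04) and the EGFR inhibitor ERRFI1 at 4.43 and 3.58 (−0.25).

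**Figure D5:**
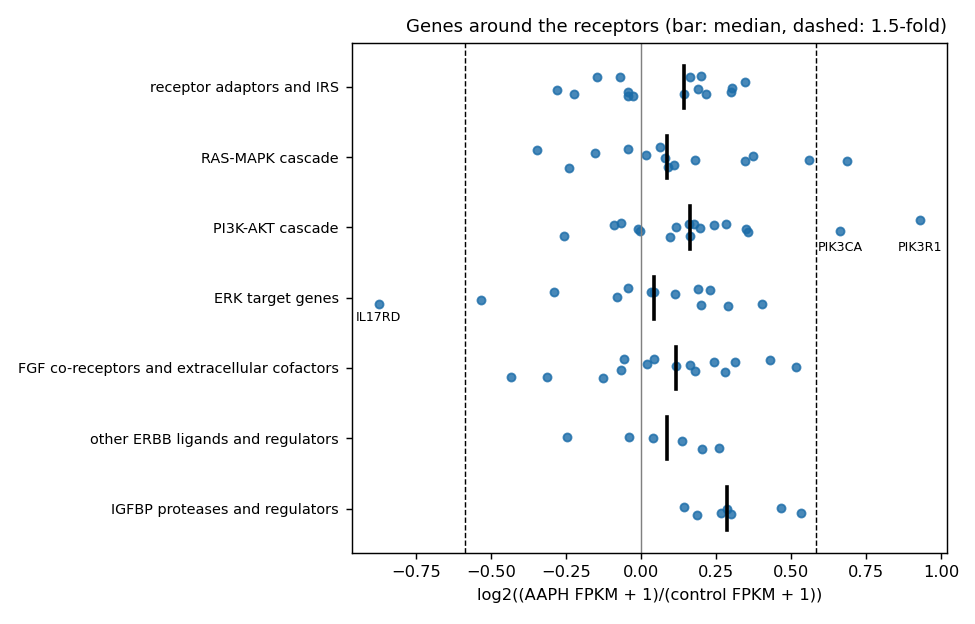
Log2 ratio of the AAPH to the control library for each compared gene of 7 lists around the receptors, with a bar at each list's median, a grey line at 0 and dashed lines at 1.5-fold. PIK3R1, PIK3CA and IL17RD are labelled among the genes outside the dashed lines, and the list medians lie between 0.04 and 0.29.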

How the data were processed

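The deposited values are FPKM per assembled transcript, 1 control and 1 AAPH library, per the file headers. The submitters' processing notes name bcl2fastq, TopHat2 (2.1.1), Cufflinks (2.2.1) and Cuffdiff. Build, annotation and strand setting: not given in the sources used here. Transcripts were summed per name, and 1968 transcripts with no name (18.2% of control and 20.6% of AAPH FPKM) were left out. With 1 library per group there was no test.

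A pseudocount of 1 FPKM, a mean of at least 1 FPKM and a limit of 1.5-fold were used. From 781 low genes with 1 transcript, the FPKM of a fragment in the AAPH library was estimated at 1.05 times that in the control, and 88.0% of their ratios were then ratios of whole numbers up to 10 (relative tolerance 0.0002). Smallest fragment pairs and their Clopper-Pearson 95% intervals rest on this and cover counting error only.

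Symbols, neighbours and chromosomes came from RefSeq (GRCg7b), with no coordinates printed. List symbols were matched exactly, by letter case or by synonym, and 3 synonym matches that pointed to a different gene were set aside after the data were seen. Members are all accounted for. Pathway genes named are those past 1.5-fold and the 2 extremes each way, and markers are named as examples, some after their values were seen; 1 pathway gene past the limit is not reported here. Members and lists were chosen with earlier results of these data known. Other scalings, pseudocounts, filters, limits and transcript choices were tried. The procedure was also run on simulated data with planted changes well past 1.5-fold and with counting error alone. That run does not show how calls near the limit, or in genes near 1 FPKM, behave. The software was Python (3.11.15) with pandas (2.3.3), numpy (2.4.6), matplotlib (3.10.9) and scipy (1.17.1).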

Additional observations from a re-analysis of the deposited data

How the results depend on the processing

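No paired analysis was possible because each group has 1 library. As reported, 0 members were higher and 1 lower at 1.5-fold. Rescaling to TPM gave 1 higher (SPRED2, 0.60) and 0 lower, and the rescaling that left out haemoglobin and mitochondrial-genome genes gave 1 higher (SPRED2) and 1 lower. Pseudocounts of 0.1 and 0.5 gave 2 lower each, FGF18 joining IGFBP5. A limit of 2-fold gave 0 lower, and a limit of 25% in place of 50% gave 2 higher and 4 lower. Taking the leading transcript of each name in place of the sum gave 2 higher and 5 lower of 44 members. It moved the ligand median relative to all genes to −0.050, the binding protein median to −0.35, the feedback inhibitor median to −0.60 and the ligand minus receptor median to −0.11; the cause was not tested. A mean of 5 FPKM or more left 3 feedback inhibitors, with a median relative to all genes of −0.16. The receptor median relative to all genes stayed between 0.06 and 0.09 in the settings run. The pathway lists had 11 higher after rescaling to TPM, 5 higher and 2 lower with a pseudocount of 0.1, and 6 higher with no filter. Shares over all genes were not computed with other pseudocounts, with the leading transcript or with no filter. The counts under those settings therefore have no background to be read against. For 419 of 430 single-gene values the side of the 1.5-fold limit did not change. Many of these could not have changed. The filter settings, the removal of Z genes and the IGF-I setting leave the ratio of each other gene as it was. Scaling by the median of ratios shifted the median of all genes by only −0.003. With the leading transcript 6 values moved and 38 did not, and after rescaling to TPM 2 moved and 43 did not. Splitting the name IGF-I into its loci, a setting chosen after seeing the data, changed no median by more than 0.1. FPKM values carry no absolute depth, and members under 1 FPKM were too low to compare.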
